A study of Mus musculus with 8 samples.

Results

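Cholesterol is built from acetyl-CoA through mevalonate, squalene and lanosterol, and a growing erythroid cell needs it for membrane. The genes of this pathway are switched together by SREBP2, the product of Srebf2, which is held in the endoplasmic reticulum by Insig1 and SCAP when sterols are plentiful and is otherwise cut and sent to the nucleus. At the promoters of these genes SREBP2 works with the CCAAT factor NF-Y and with SP1, a GC box factor of the same family as the erythroid activator KLF1. 8 genes of the pathway were examined: Hmgcs1, Idi1, Fdft1, Sqle, Cyp51, Sc4mol, Insig1 and Srebf2. They were chosen by their place in the pathway and were selected on the authors' fold changes between K1-ER and K1 cells, values that are neither used nor printed here. Of the 8 genes, 7 were among the 11364 genes with a nascent RNA level, and 2 of 5551 KLF1 sites had one of them as the closest transcription start site (TSS). Hmgcs1 was not analysed here for RNA or for sites. By their functions the 8 genes were 6 enzymes of synthesis and 2 regulators. None was a gene of cholesterol uptake, so the uptake genes are described among the other genes of the pathway.

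K1 cells are an immortalised erythroid line from Klf1 null mouse fetal liver, so every group shared the loss of Klf1. K1-E339K-ER cells (K1-CDA-ER in the labels) are K1 cells that carry KLF1-E339K, the mouse form of a human dyserythropoietic anaemia mutation, fused to the estrogen receptor domain and expressed from a retrovirus, so that 4-hydroxytamoxifen (4-OHT) moves the protein into the nucleus. K1-ER cells carry wild type KLF1-ER in the same form, and their libraries came from earlier work. Newly made RNA, labelled by the sample descriptions with 500 µM 4-thiouridine for 30 min (4sU-RNA-seq), was sequenced in 3 K1 libraries, 2 with 200 nM 4-OHT and 1 labelled as ethanol although its protocol text names 4-OHT, and in 3 K1-E339K-ER libraries with 200 nM 4-OHT, each from a different clone. The study's methods give another 4-thiouridine concentration and a longer labelling time, so the labelling conditions are uncertain. The ChIP-seq data were 1 KLF1-E339K-ER library and 1 input library, from 1 clone induced for 3 h with 200 nM 4-OHT, with samples pooled before sequencing. The levels used here are the authors' means: 1 mean level per gene over all RNA libraries of their fit, and 1 mean concentration per site for each protein. No spread between replicates came with these means and the depth behind them is unknown. The authors' fold changes and test values between cell lines were deposited but were not used here. For this reason no difference between cell lines in RNA and no test is given. In such bulk libraries fewer cells making an RNA and less RNA per cell cannot be told apart.

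The cells were checked against cell type markers. All 10 erythroid markers had a level, from 3.79 to 9.79 log2 CPM (read counts scaled to library size), the highest being that of Gata1. None of 3 lymphoid, 2 hepatocyte or 2 endothelial markers was among the genes with a level. Of 3 myeloid markers Mpo had a level, 1.84 log2 CPM, and of 2 fibroblast markers Col1a1, −1.69. Of 3 megakaryocyte markers 2 had a level, Gp9 with 1.79 and Itga2b with 5.30. The level of Klf1 was 6.84 log2 CPM, a mean over lines with and without a transgene that cannot be divided between them here.

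The KLF1 sites of the 2 regulators are given first because they are the sites with a chosen gene as the closest TSS in the authors' table. KLF1 recognises a 9-base motif whose middle base separates 2 forms. The pyrimidine form, searched as NGGGCGTGG, NGGGCGGGG, NGGGTGTGG and NGGGTGGGG, is the one bound by the wild type protein. The purine form, searched as NGGGAGTGG, NGGGAGGGG, NGGGGGTGG and NGGGGGGGG, carries a purine at that base. Both strands were read. The Srebf2 site lay at mm9 chr15:81977473-81977913 and spanned the annotated start of Srebf2, with its midpoint 3 bp before it. The part of the site before that start, plus strand of mm9 chr15:81977473-81977695, reads as follows, with matches to the pyrimidine form in capitals.
Srebf2 site: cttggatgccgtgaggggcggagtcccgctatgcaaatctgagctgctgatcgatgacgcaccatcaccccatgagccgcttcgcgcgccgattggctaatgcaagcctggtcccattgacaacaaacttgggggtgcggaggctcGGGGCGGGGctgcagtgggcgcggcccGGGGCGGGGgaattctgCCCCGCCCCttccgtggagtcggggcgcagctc
The site held 3 pyrimidine matches and 0 purine matches, and each match was the same 9 bases, GGGGCGGGG, with 2 on the plus strand and 1 on the minus strand. Each of these 9-base matches also holds the GC box GGGCGG, so KLF1 and GC box matches are not separate there. At least 3 pyrimidine matches were present in 13.5% of all sites and in 18.5% of the 2190 sites within 1 kb of a TSS.

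The Insig1 site lay at mm9 chr5:28369254-28369583, 28.5 kb upstream of the start of Insig1, in an intron of Gm16719, a lincRNA gene on the opposite strand (mm9 chr5:28346005-28397645). The authors' table names Insig1 as its closest TSS, but in GENCODE M1 the start of Gm16719, 28.2 kb from the midpoint, was slightly nearer. Its central 300 bases, plus strand of mm9 chr5:28369269-28369568, read as follows, with the match to the purine form in capitals as it stands on this strand.
Insig1 site: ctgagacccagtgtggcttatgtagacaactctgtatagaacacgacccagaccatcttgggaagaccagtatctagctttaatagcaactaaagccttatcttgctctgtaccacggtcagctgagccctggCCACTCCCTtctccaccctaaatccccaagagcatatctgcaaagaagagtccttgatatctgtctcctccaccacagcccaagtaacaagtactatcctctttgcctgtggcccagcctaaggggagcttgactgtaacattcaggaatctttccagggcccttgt
This site held 1 purine match, AGGGAGTGG on the minus strand, centred 12.5 bp from the midpoint, and 0 pyrimidine matches. Over all sites, 58.6% held a pyrimidine match and 58.4% a purine match, and 23.3% held a purine match with no pyrimidine match, as at Insig1.

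Both sites carried more wild type than mutant protein. At the Srebf2 promoter the mean concentration, the log2 of the normalised read count, was 6.48 for KLF1-ER and 3.53 for KLF1-E339K-ER. The wild type value was 7.73 times the mutant value and stood above those of 95.7% of all sites, and the mutant value stood above those of 23.1%. Among the 1591 sites higher with wild type KLF1-ER by at least 2-fold, these shares were 88.9% and 80.4%. At the Insig1 site the concentrations were 5.29 for KLF1-ER and 3.98 for KLF1-E339K-ER, a ratio of 2.48. The Insig1 wild type value was above 79.5% of sites and the mutant value above 26.4%. With a difference of at least 2-fold counted as higher, wild type KLF1-ER was higher at 2 of the 2 sites, and the same was true of 1591 of all 5551 sites (28.7%). KLF1-E339K-ER was higher at 0 of the 2 sites and at 3414 of all sites (61.5%). Among sites within 1 kb of a TSS the shares were 31.0% and 57.5%. With 2 sites and 1 mean per protein no spread can be put on these counts, and protein, library and time of the experiment cannot be told apart in them.

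The pyrimidine form, present at Srebf2, took different shares of the sites of each direction. A pyrimidine match was present in 78.8% of the sites higher with wild type KLF1-ER and in 47.2% of those higher with KLF1-E339K-ER. At least 3 of them, as at Srebf2, were present in 26.3% and 6.50% of these sites. The purine form, present at Insig1, had shares in the other order. A purine match was present in 33.2% of the sites higher with wild type and in 69.6% of those higher with the mutant protein, and the Insig1 site was among the former. A purine match with no pyrimidine match, as at Insig1, was present in 5.47% and 33.1% of these sites, against 23.3% of all sites. Purine matches with A and with G as the middle base were not counted apart.

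The sites with another gene of the pathway as the closest TSS carried more mutant than wild type protein. Of 29 such genes, 3 were the closest TSS of a site, with 4 sites in all, and each of the 4 was higher with KLF1-E339K-ER by at least 2-fold, as were 61.5% of all sites. Insig2, which retains SREBP in the endoplasmic reticulum as Insig1 does, had a site in an annotated untranslated region at an inner start of the gene, not its outermost one, where the concentration was −0.09 for KLF1-ER and 4.37 for KLF1-E339K-ER. The value −0.09 is the lowest wild type concentration in the table and was shared by 1424 sites, so differences from it are lower bounds. The remaining 3 sites belonged to genes of uptake and lysosomal release. Scarb1, the receptor for high density lipoprotein, had 2 sites in its introns, with 0.50 and −0.09 for the wild type and 4.69 and 4.97 for the mutant protein. Npc1, which exports cholesterol from lysosomes, had 1 site with 0.91 for the wild type and 5.28 for the mutant protein. A purine match was present in 4 of these 4 sites and a pyrimidine match in 1, against 58.4% and 58.6% of all sites. Among all sites higher with KLF1-E339K-ER by at least 2-fold, as these 4 are, the shares were 69.6% and 47.2%. Whether the direction differed between the 8 chosen genes and the others was not tested.

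**Figure D1:**
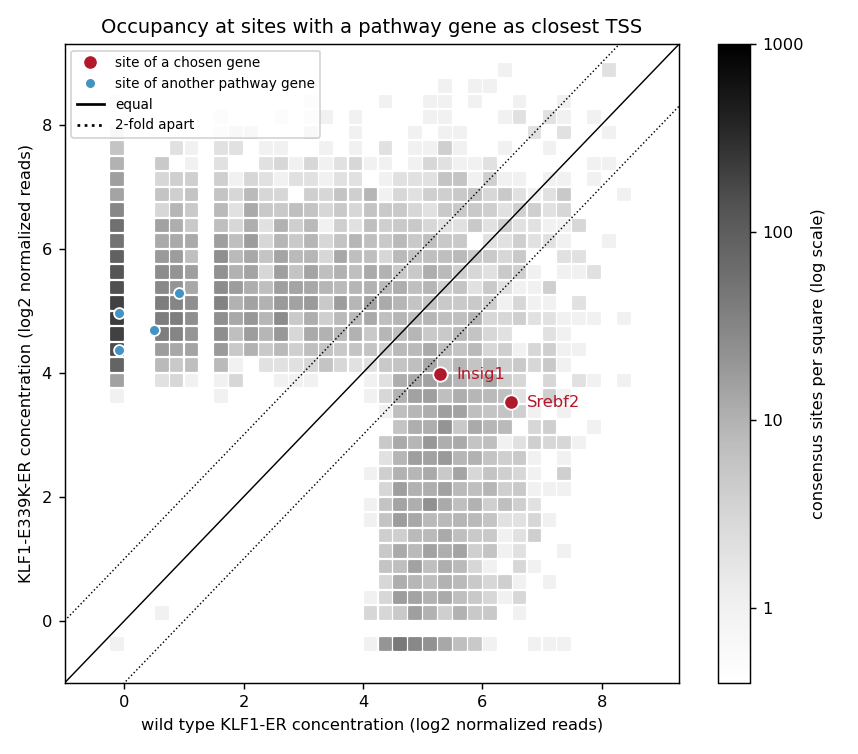
Mean wild type (horizontal) and mutant (vertical) concentration, in log2 normalised reads, of the 6 sites whose closest TSS is a cholesterol pathway gene, over all 5551 sites in grey (darker squares hold more sites, log scale). Both sites of the chosen genes (red), Srebf2 at 6.48 and 3.53 and Insig1 at 5.29 and 3.98, lie below the lower 2-fold line, and the 4 sites with another pathway gene as closest TSS (blue) lie above the upper one.

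The 5 enzymes analysed had no site of their own. Of the 7 chosen genes analysed for sites, 2 were the closest TSS of a site by the authors' table, against 3 of 29 other pathway genes and 3022 of the 11364 genes with a level (26.6%). None of the 19 genes analysed in the 3 synthesis lists, from the early steps to the later sterol steps, was the closest TSS of a site, while 3 of 7 control genes and 2 of 5 genes of uptake and lysosomal release were. The genes of export and storage, 5 in the list, had none either. From the start of Fdft1, whose product joins the pair of farnesyl units that make squalene, the nearest site was 54.9 kb away and had Ctsb as its closest TSS, with concentrations of 3.08 for KLF1-ER and 4.55 for KLF1-E339K-ER. The nearest site of Idi1, the isopentenyl diphosphate isomerase, was 114 kb away at Gtpbp4, with 5.48 and 2.04. For Sqle, the squalene epoxidase, the nearest site was 242 kb away at Mtss1, with 0.50 and 4.99. The nearest sites of Sc4mol, a C4 methylsterol oxidase, and of Cyp51, the lanosterol demethylase, were 258 kb away at Tmem192, with 4.79 and 0.66, and 471 kb away at Gatad1, with 0.50 and 4.28. The median distance was 114 kb over the 7 genes with a position, 94.1 kb over the 29 other pathway genes and 46.9 kb over 10636 genes. A site lay within 100 kb for 3 of the 7 (42.9%), for 51.7% of the other pathway genes and for 64.1% of all genes. Within 10 kb the shares were 1 of the 7 (14.3%), 20.7% and 29.6%. These distances run from any annotated start of a gene, including inner ones. A site of Scarb1 thus counted as 4.7 kb away, against 61.6 kb in the authors' table. Counting those of Srebf2 and Insig1, wild type KLF1-ER was higher at 4 of these 7 nearest sites and KLF1-E339K-ER at 3, against 28.7% and 61.5% of all sites. At the nearest sites of the 29 other pathway genes wild type KLF1-ER was higher at 10 and KLF1-E339K-ER at 17.

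**Figure D2:**
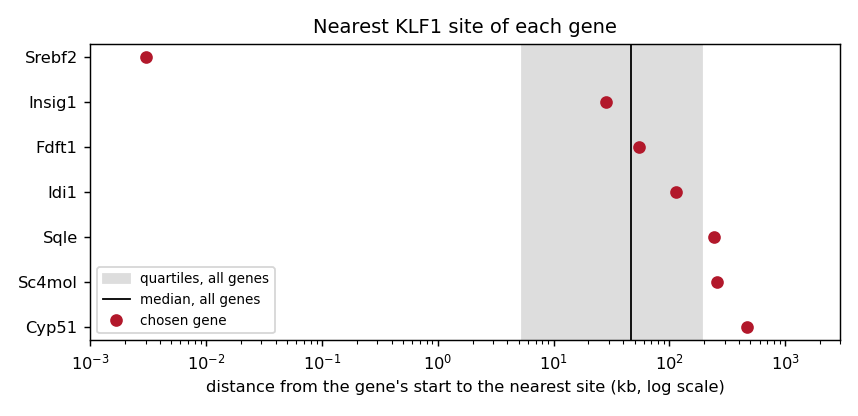
Distance from the closest annotated start of each of 7 chosen genes to the nearest KLF1 site (horizontal, kb, log scale). The line is the median of 10636 genes (46.9 kb) and the band their quartiles. Srebf2 and Insig1 lie below the median and the 5 enzymes above it, out to 471 kb for Cyp51.

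All 7 chosen genes with a level were above the median of all genes, 5.27 log2 CPM. On this scale, which is not divided by length, Srebf2 had the highest level, 8.01, above 93.8% of genes, and Insig1 had 7.62. Among the enzymes Cyp51 had 6.81 log2 CPM, Sqle 6.65, Sc4mol 6.52, Fdft1 6.36 and Idi1 5.64, from the 78.3 to the 56.3 percentile. Srebf2 and Fdft1 are long genes, and length adds reads in RNA that still holds introns.

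Per kb of the authors' gene length, which was within 1.79% of the annotated span from first to last exon for each of the 7, the order changed. Insig1, on 7251 bp, had the highest level of the 7, 4.76 log2 CPM per kb, above 96.2% of genes. Idi1, which had the lowest level before division by length, came next with 2.87 log2 CPM per kb on 6791 bp, above 82.6% of genes. Sqle, Sc4mol, Cyp51 and Srebf2 followed within a narrow range, at 2.64, 2.57, 2.23 and 2.16 log2 CPM per kb. Fdft1 was lowest, at 1.33 on 32643 bp, above 58.7% of genes. The median per kb was 2.57 for the 7 genes and 0.82 for all genes. The ratio between Insig1 and Fdft1 was 10.8 on this scale. Without a spread between libraries it cannot be said which neighbours in this order differ. Because the genes were chosen for their response in K1-ER cells, and because the mean runs over lines with and without active KLF1, these levels describe the mixture and not any one line.

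The wider pathway had a broader range of levels. Of 29 other genes 25 had a level, 15 of them above the median of all genes, with a median of 1.67 log2 CPM per kb. The highest were Fdps, the farnesyl diphosphate synthase, at 4.73 log2 CPM per kb, Nr1h2, the oxysterol receptor LXR beta, at 3.81, and the SREBP protease gene Mbtps1 at 3.41. The lowest were the cholesterol exporter Abcg1 at −7.19 log2 CPM per kb, the cholesterol esterifying enzyme Soat1 at −5.81 and Npc1 at −2.65. Of the 2 INSIG genes, Insig1 had 4.76 and Insig2 had −1.62 log2 CPM per kb. By list, the chosen genes included, the median per kb was 2.38 for the early steps, 1.67 for the squalene and lanosterol steps, 2.26 for the later sterol steps, 2.16 for control, −0.01 for uptake and lysosomal release and −5.81 for export and storage, with 3 genes in each of the squalene and lanosterol, uptake and export lists.

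**Figure D3:**
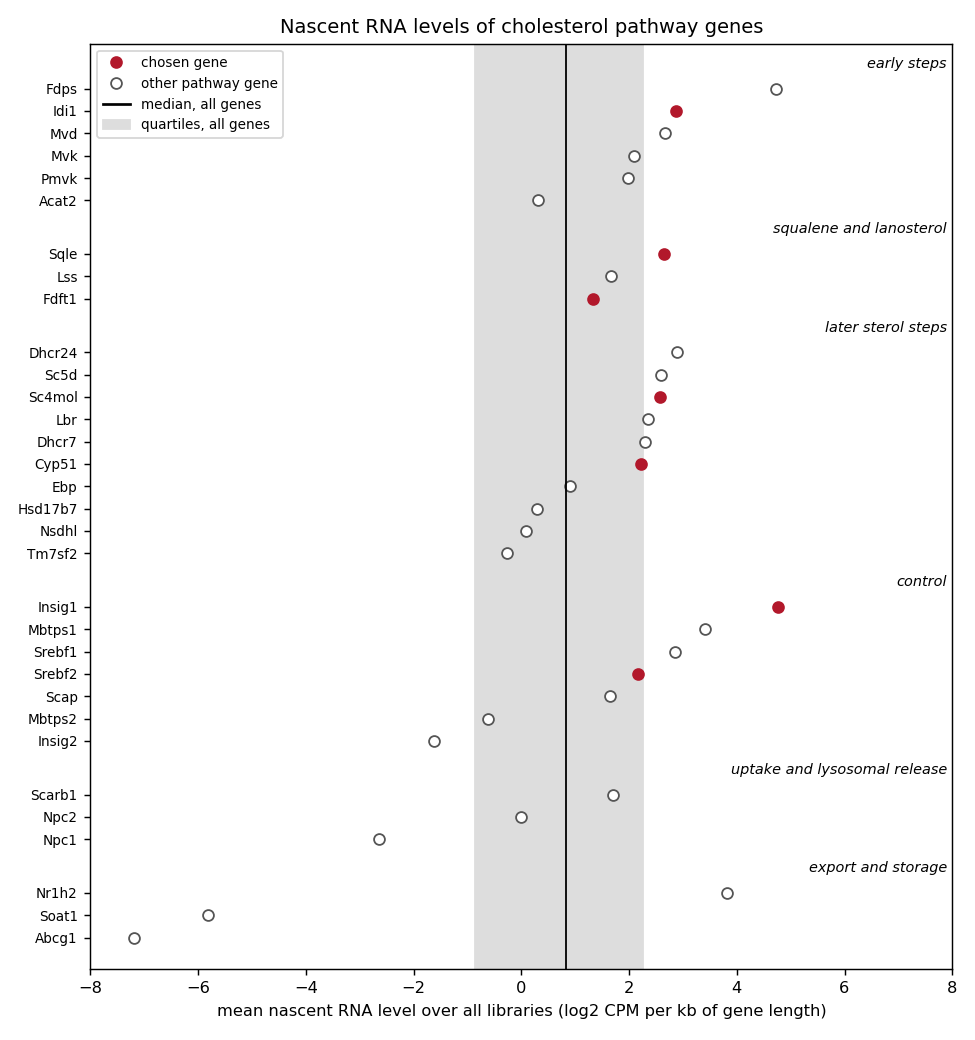
Mean nascent RNA level over all libraries (log2 CPM per kb of gene length) of 32 cholesterol pathway genes by list, with the 7 chosen genes filled, the median of all genes as a line (0.82) and their quartiles as a band. Every filled point lies to the right of the line, with Insig1 at 4.76 and Fdft1 at 1.33 as the extremes.

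The promoters of the chosen genes were compared for the motifs of NF-Y (CCAAT), GC box factors (GGGCGG), SREBP (TCACNCCAC) and KLF1, on both strands, in RefSeq windows of 250 bases before and 50 after the start (GRCm38.p6). Windows were found for 6 of the 8 genes, all but Sqle and Fdft1. Sc4mol and Hmgcs1 are shown, Sc4mol because it held 3 CCAAT boxes and a purine match, Hmgcs1 because it held the only SREBP match. The 250 bases before the start of Sc4mol are the minus strand of GRCm38.p6 chr8:64733579-64733828, and those of Hmgcs1 the plus strand of GRCm38.p6 chr13:119690101-119690350, each with CCAAT boxes in capitals (ATTGG where the box is on the other strand) and, in Hmgcs1, the SREBP match too.
Sc4mol promoter: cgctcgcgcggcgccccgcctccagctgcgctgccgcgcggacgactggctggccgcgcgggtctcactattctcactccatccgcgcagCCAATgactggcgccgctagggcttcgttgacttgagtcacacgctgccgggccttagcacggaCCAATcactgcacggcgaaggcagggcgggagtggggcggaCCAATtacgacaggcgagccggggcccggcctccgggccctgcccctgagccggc
Hmgcs1 promoter: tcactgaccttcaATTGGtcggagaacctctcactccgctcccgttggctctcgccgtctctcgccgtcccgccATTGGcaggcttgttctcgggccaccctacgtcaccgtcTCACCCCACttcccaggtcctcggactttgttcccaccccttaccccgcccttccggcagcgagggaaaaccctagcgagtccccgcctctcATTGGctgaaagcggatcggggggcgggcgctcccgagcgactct
The 3 CCAAT boxes of Sc4mol began 160, 96 and 55 bases before the start, and all were on the strand of the gene. At least 3 boxes were present in 3.37% of 32851 RefSeq windows. Hmgcs1, which makes HMG-CoA at the head of the mevalonate pathway, had 4 CCAAT boxes over the whole window, a number reached by 1.06% of windows, and a TCACCCCAC match 137 bases before the start.

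A CCAAT box was present in 6 of the 6 windows, against 37.4% of all windows and 18 of 33 windows of other pathway genes (54.5%). Some of these other genes have several windows, and counted by gene 17 of 24 had a box in at least 1 window (70.8%). A GC box was also present in 6 of 6, against 35.7% of all windows and 24 of the 33 windows of other pathway genes (72.7%), or 20 of the 24 genes (83.3%). Both together were present in 12.8% of all windows. On the strand of the gene alone a CCAAT box was present in 2 of 6 windows and in 21.1% of all windows. The G and C content of the chosen windows had a median of 67.2%, against 52.7% for all windows, and ran from 52.3% in Idi1 to 71.7% in Insig1. Among the 19938 windows with at least 50% G and C, a background chosen after seeing the data, the share was 35.0% for CCAAT and 55.4% for the GC box. The exact SREBP string TCACNCCAC, in 1 of 6 windows, was present in 1.24% of all windows and in 0 of the 33 windows. Other forms of the SREBP motif were not searched, so a window without this string may still hold one.

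KLF1 motifs were less evenly spread. The pyrimidine form was present in 3 of 6 windows, those of Srebf2, Insig1 and Hmgcs1, against 29.7% of all windows, 43.8% of those with at least 50% G and C and 19 of the 33 windows of other pathway genes (57.6%), or 16 of the 24 genes (66.7%). The 3 matches of Srebf2 are those of its site, 80, 53 and 36 bases before the RefSeq start. The match of Insig1 was 168 bases before the start, while the site nearest to Insig1 was 28.5 kb away. The purine form was present in 1 of 6 windows, that of Sc4mol, 70 bases before the start, against 22.6% of all windows, 30.5% of those with at least 50% G and C and 8 of the 33 windows (24.2%), or 8 of the 24 genes (33.3%). This match had A as its middle base, and the site nearest to Sc4mol was 258 kb away. Idi1 and Cyp51 had neither form. A match is a run of letters and does not show that a factor binds there.

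**Figure D4:**
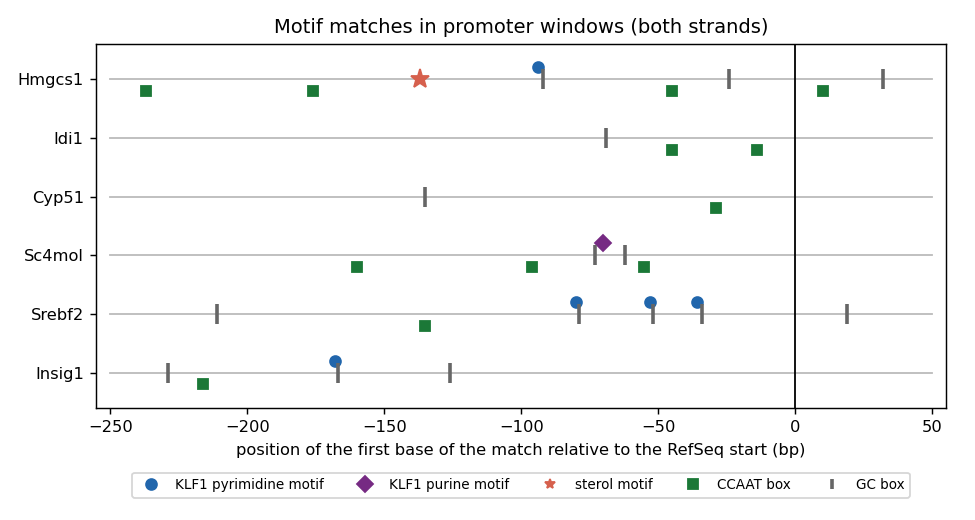
Motif matches on both strands in the RefSeq windows of 6 chosen genes, by distance from the start (horizontal, bp, upstream negative), with 1 line per gene. CCAAT boxes and GC boxes occur in all 6, the KLF1 pyrimidine form in Hmgcs1, Srebf2 and Insig1, the purine form in Sc4mol, and the exact SREBP string TCACNCCAC in Hmgcs1.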

How the data were processed

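Ion Proton reads were mapped by the authors to mm9, RNA reads with TopHat2 (2.0.10) and TMAP and ChIP reads with TMAP, without duplicate and multi-mapped ChIP reads. The authors deposited mean log2 CPM per gene over all libraries of their limma fit, with gene length, and DiffBind's mean log2 concentration per site for wild type and mutant protein, with the distance to the closest TSS. Positions, lengths and distances, other values the authors deposited, are in base pairs. The deposited tables also hold the authors' log2 fold changes, t values, p-values and FDR, which were not used. The versions of limma and DiffBind are not given in the sources used here.

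Gene tables were joined on Entrez identifier, length and mean level, and all 11364 genes were joined, 779 of them under another symbol (Sc4mol as Msmo1). Levels per kb are log2 CPM minus log2 of length in kb, with no pseudocount. The difference at a site is the mutant minus the wild type concentration, and at least 1 on the log2 scale counted as 2-fold. Positions are GENCODE M1 and sequence is NCBIM37 (mm9), read with pysam 0.24.0 under Python 3.11.15 and pandas 2.3.3, and motifs were matched exactly. The scripts were tested on simulated data. With no value per library, replicates were neither averaged nor tested, and the depth is unknown. All 8 chosen genes were named, with each other pathway gene that had a site, the 3 highest and 3 lowest per kb, and Klf1. Erythroid markers were given as a range with the highest named, and other cell type markers with a level by name. Some genes of the pathway list are not reported here and enter none of its counts. The members and lists were chosen with earlier results of these data known.

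Alternatives were a background of genes above 0 log2 CPM, levels per kb, sites within 10 kb or 1 kb of a TSS, 4-fold in place of 2-fold, sites with a concentration of at least 5, motifs within 50 bp of the midpoint, and 1 strand. A second background of windows rich in G and C was added after seeing the data.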

Additional observations from a re-analysis of the deposited data

How the results depend on the processing

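Of 13 alternatives for counts above 0, 9 left the count over the chosen genes within 1.5 times its value. The count of sites higher with KLF1-E339K-ER was 0 and could not change under its 2 alternatives, which only narrow it. The others were these. The number of sites of the chosen genes was 1 in place of 2 within 10 kb of the TSS and 1 within 1 kb, since the Insig1 site is 28.5 kb away. At 4-fold, wild type KLF1-ER was higher at 1 site, that of Srebf2, in place of 2, while over all sites the share went from 28.7% to 23.3%. With the strand of the gene alone, a CCAAT box was present in 2 of 6 windows in place of 6, since every box of Insig1, Idi1, Hmgcs1 and Srebf2 was on the other strand.

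No paired analysis was possible because the deposited columns are means over libraries, with no value for a replicate, and leaving out a replicate was not possible for the same reason. The wild type and mutant concentrations came from separate experiments, so protein and experiment cannot be told apart. The nearest gene need not be the gene a site acts on. What the lowest concentrations show is limited, since 1424 sites shared the lowest wild type value and 147 the lowest mutant value. Whether depth set these values was not tested.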
